A study of Sus scrofa with 9 samples.

Results

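The cell cycle and senescence regulators examined here were 57 genes listed by symbol, and 53 of them carried 5-hydroxymethylcytosine (5hmC) values in both comparisons of the study. The other 4 genes, CDKN2A, CDK6, CDC25A and MCM5, were not analysed here. The list was given by symbol and not by a measured value, but it was drawn up with earlier results of these data known. It was divided by role into 22 inhibitors, 27 drivers and 4 chromatin proteins linked to senescence. In all, 18933 genes had values in the comparison of diets and 18992 in the comparison of treatments. Mesenchymal stem/stromal cells (MSCs) were grown from subcutaneous abdominal fat of female domestic pigs. Feeding began at 3 months of age and lasted 16 weeks, with standard chow for the Lean pigs. The Obese pigs received high-fat/high-fructose feed instead. The libraries were 3 of Lean-MSCs (numbers 7, 8 and 9), 3 of untreated Obese-MSCs (1, 2 and 3) and 3 of Obese-MSCs that were given vitamin-C, 50 µg/mL during 48 h (4, 5 and 6). Ascorbate was also part of the culture medium that all groups shared, so untreated here means without the added dose. The dose was given, or left out, in the passage that followed the third. The untreated Obese libraries served in both comparisons, so the comparisons are not independent, and their values were normalized separately in each.

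Cells enter division when cyclins activate cyclin-dependent kinases (CDKs), which phosphorylate the retinoblastoma protein and its relatives and so release E2F transcription factors that switch on the genes of DNA replication. INK4 proteins such as p18 (CDKN2C) and p15 (CDKN2B) block CDK4 and CDK6, while CIP/KIP proteins such as p21 (CDKN1A) and p57 (CDKN1C) bind cyclin-CDK complexes more broadly. Senescence is a lasting arrest held by these inhibitors, and senescent cells typically lose lamin B1 (LMNB1) and remodel their chromatin. The mark measured here, 5hmC, is made from 5-methylcytosine by TET enzymes, for which vitamin-C is a cofactor, and is commonly found over the bodies of active genes. It is a mark on DNA and not a measure of how much RNA or protein a gene makes.

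In hMeDIP-seq, an antibody against 5hmC pulls down sheared DNA that bears the mark, and the pulled-down DNA is sequenced. Each value is the number of such reads over all exons of a gene, normalized by the authors, and summed to between 494566 and 522269 per library in the comparison of diets and between 547242 and 593846 in that of treatments. The low values of 1 Lean library and 1 treated library moved in steps of 0.993 and 1.006, so 1 normalized count stands for about 1 read there. The median coefficient of variation of a member between the 3 libraries of a group was 18.7% in Lean-MSCs, 24.3% in Obese-MSCs and 28.1% with vitamin-C. Marker genes could not check the cell type, because genes that MSCs do not express also carried the mark. PTPRC (CD45) had 46.9 normalized counts in Obese-MSCs and ENG (CD105) 57.3, while CD14 was listed at 0 in every Lean library. The annotated spans of 19 of the 53 members overlap another gene, and how the counting treated strand is not given in the sources used here.

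Between Obese-MSCs and Lean-MSCs few members were called, at a share near that of all genes. By the study's criteria, which are an unadjusted two-sided p-value of 0.05 or less together with a mean in one group at least 1.4 times, or no more than 0.7 times, that in the other, CDKN2C and SKP2 were high and WEE2 was low in Obese-MSCs. These are 3 of 53 members (5.66%), where 4.5% of all genes met the criteria (2.07% high and 2.43% low). Recomputed here on the deposited values, the criteria called 391 genes high and 461 low. The study reported more in each direction, so its own calls were not fully reproduced. Without the limit on the ratio, 5 members passed, with MCM2 and HELLS in addition, and 6.04% of all genes. Leaving out 1 library gave 0 members without Lean library 8 and 5 without Obese library 2. The share of all genes in those runs is not given here, so the changed counts may not be particular to the members. The libraries of the 2 groups did not overlap in 10 members (18.9%), where 11.8% of all genes had no overlap, with 5.7% higher and 6.06% lower in Obese-MSCs. CDKN2C, E2F4, CCND1, SKP2, PCNA and HELLS were higher in every Obese library than in any Lean library, and RBL2, E2F5, WEE2 and MCM2 were lower. On the log2 scale with limma, 0 of 52 members tested passed a Benjamini-Hochberg adjusted p of 0.05, as did 0 of 15147 genes (0%). An unadjusted limma p of 0.05 or less was reached by 7 members, all with higher means in Obese-MSCs, where 6.81% of all genes reached it (3.2% higher and 3.61% lower). CDKN2C, E2F4, CCND1, E2F1, E2F2, SKP2 and PCNA were these members.

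**Figure D1:**
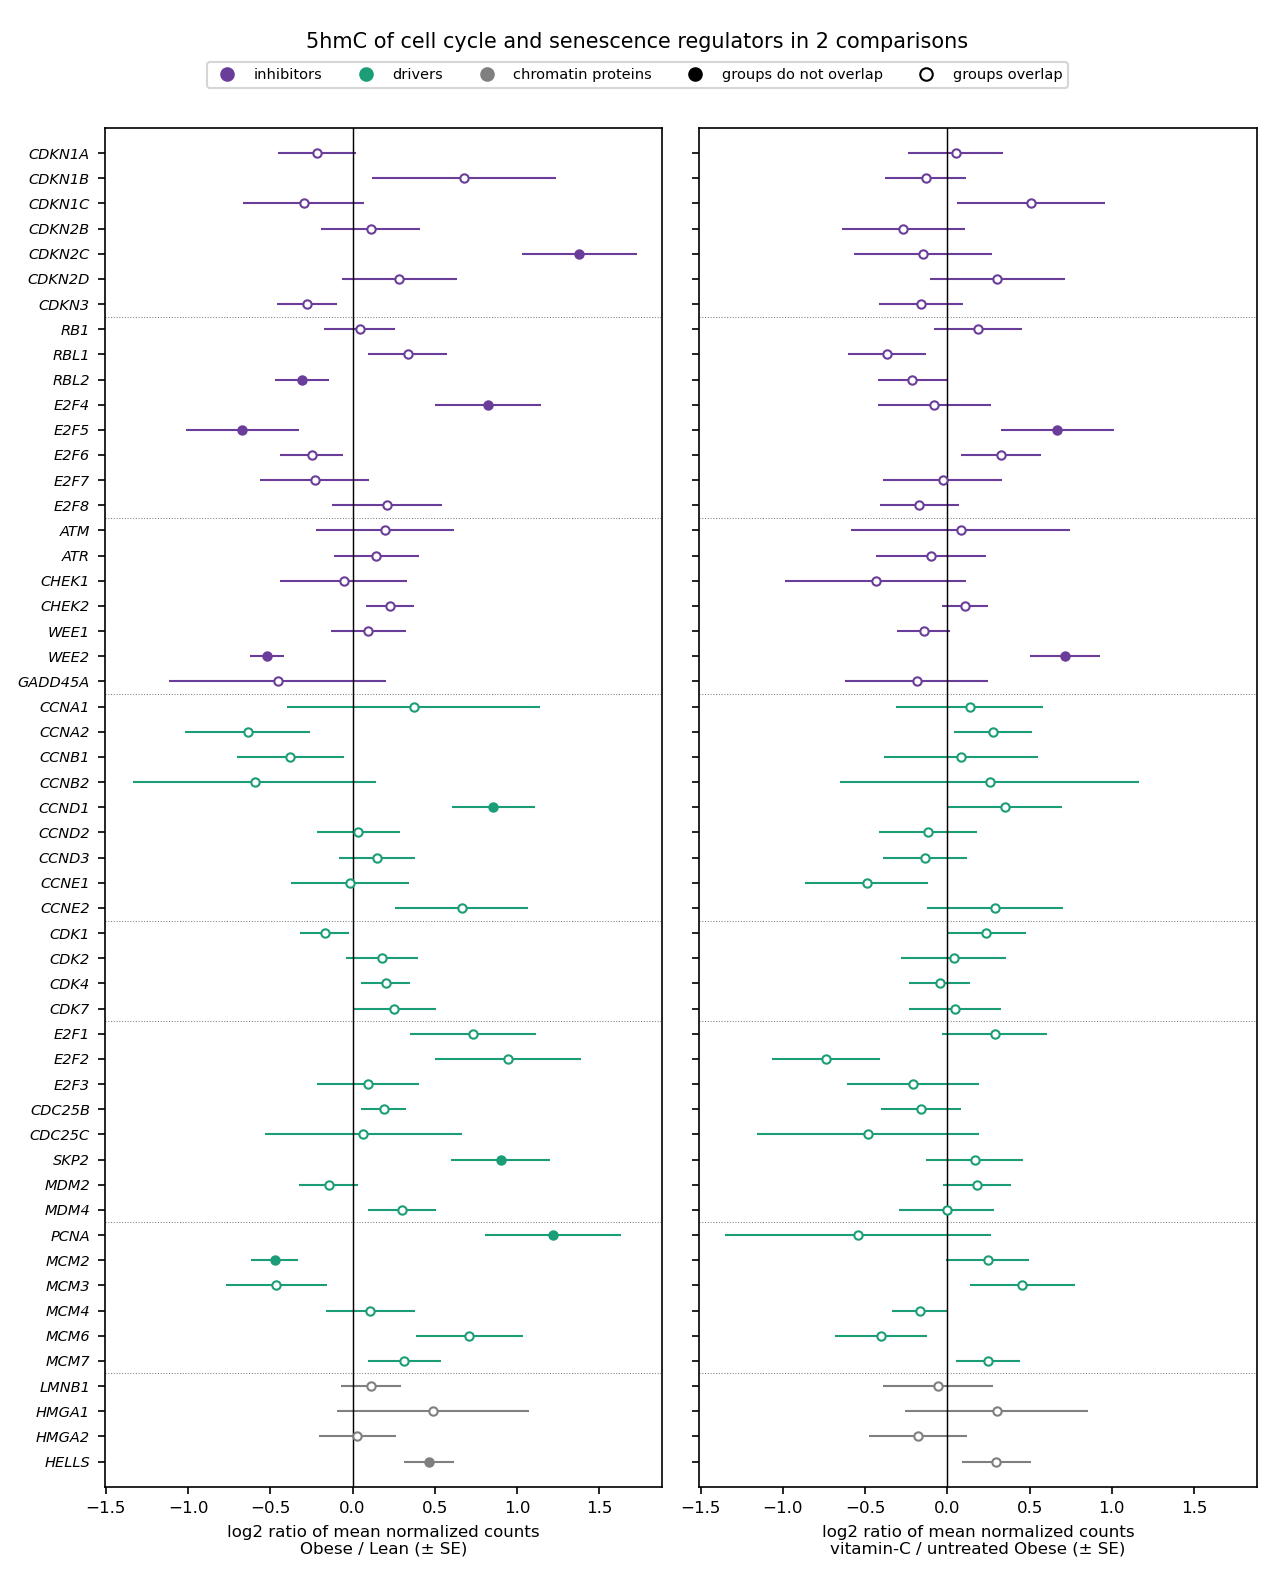
Log2 ratio of mean normalized counts (± SE, n = 3 libraries per group) for each of the 53 members, Obese over Lean on the left and vitamin-C over untreated Obese on the right. Rows are grouped by role from CDK inhibitors at the top to chromatin proteins at the bottom, colours give inhibitors, drivers and chromatin proteins, and filled points mark members whose groups do not overlap, 10 on the left and 2 on the right. Untreated Obese libraries enter both panels.

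The direct CDK inhibitors were split, with 4 of 7 higher and 3 lower in Obese-MSCs and a median log2 ratio of 0.11. CDKN2C, which encodes the INK4 inhibitor p18, lies on chromosome 6 from 161160290 to 161166681 (Sscrofa11.1). Its normalized counts were 21.4, 21.7 and 38.3 in Obese-MSCs and 10.2, 12.9 and 8.24 in Lean-MSCs. All Obese libraries lay above all Lean libraries, and the third of them stood well above the other two. The ratio of means was 2.60, with a log2 ratio of 1.38 ± 0.35 (SE, n = 3 each) that ranked at the 96.8th percentile of all genes. The exact permutation test gave p = 0.1, the smallest that 3 libraries against 3 allow. With limma the adjusted p was 0.619 and the unadjusted p 0.000962, the lowest of the members tested. CDKN2C met the criteria in 1 of 6 runs that left out 1 library, the run without Obese library 3, and missed them without any of the others, with a log2 ratio between 1.05 and 1.56 throughout. It also missed them when the variances were not taken as equal.

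Its INK4 relative CDKN2B (p15) had 39.7, 76.9 and 66.9 normalized counts in Obese-MSCs and 63.2, 61.6 and 45.2 in Lean-MSCs. The groups overlapped throughout, and the limma estimate of 0.07 on the log2 scale had a 95% interval from -0.48 to 0.63. CDKN1A, the gene of the CIP/KIP inhibitor p21, had 20.4, 19.0 and 12.0 in Obese-MSCs and 21.4, 20.9 and 17.5 in Lean-MSCs. Its means of 17.2 ± 4.48 and 19.9 ± 2.13 (SD, n = 3 each) differed by less than the spread, with a limma interval from -0.87 to 0.40. CDKN1C (p57) was also close, at 7.34 ± 2.87 against 9.03 ± 1.86 (SD, n = 3 each). CDKN1B (p27), CDKN2D (p19) and the phosphatase gene CDKN3, which complete the class, had log2 ratios of 0.68, 0.28 and -0.28 with overlapping groups. The Lean values of CDKN1B ran from 3.62 to 14.9, which left an SE of 0.56 on its ratio.

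**Figure D2:**
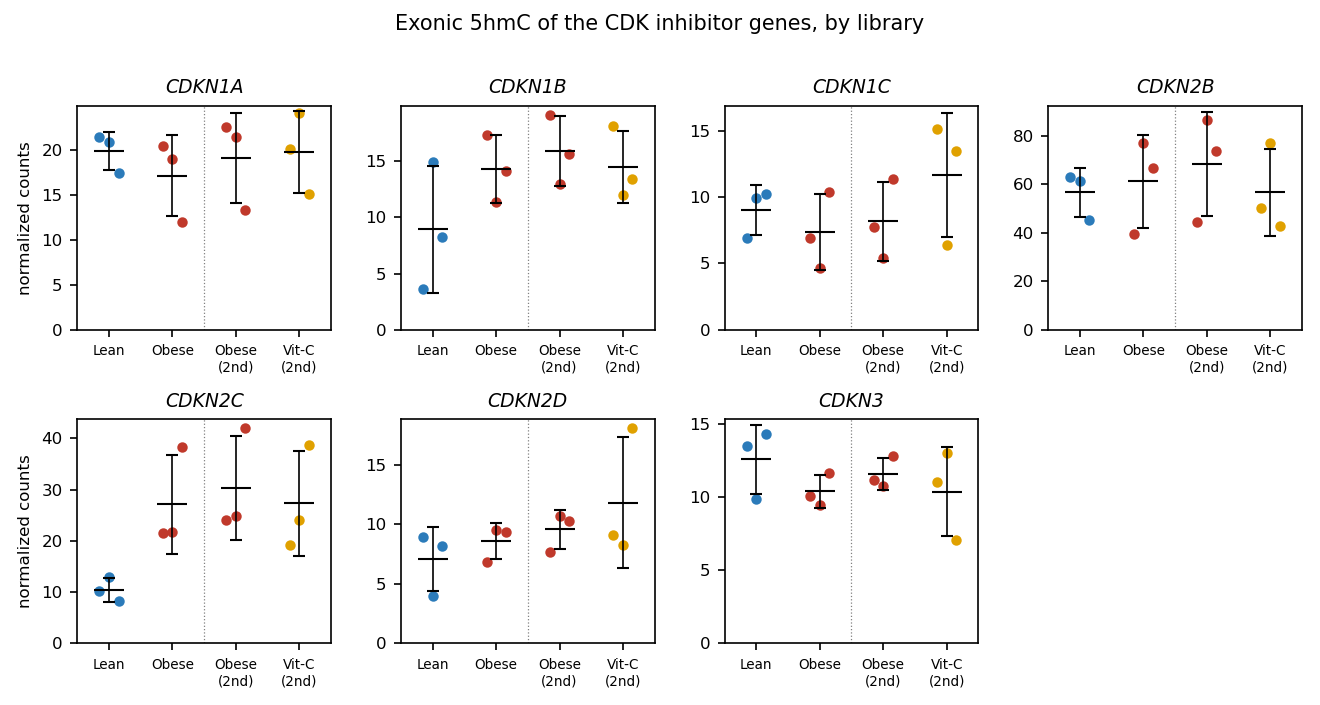
Normalized counts of exonic 5hmC (vertical axes, from 0) of the 7 direct CDK inhibitor genes, with a point per library and the mean ± SD of each group of 3. Lean and Obese left of the dotted line come from the comparison of diets, and Obese (2nd) and Vit-C right of it from the separately normalized comparison of treatments. CDKN2C is the one whose Obese libraries (21.4 to 38.3) all lie above its Lean libraries (8.24 to 12.9), and no gene separates treated from untreated libraries.

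Among the pocket proteins and the E2F factors that mostly repress, 4 of 8 genes were higher and 4 lower in Obese-MSCs, with a median log2 ratio of -0.09. RB1, the retinoblastoma gene, had 20.6, 33.2 and 31.6 normalized counts in Obese-MSCs and 29.3, 24.8 and 28.8 in Lean-MSCs. Its log2 ratio of 0.04 ± 0.22 (SE, n = 3 each) was small beside its spread, and the limma interval ran from -0.57 to 0.60. The span of RB1 overlaps the gene LPAR6. E2F5, which encodes an E2F that works with the pocket proteins as a repressor, had 8.75, 6.64 and 3.72 in Obese-MSCs and 10.2, 8.93 and 11.3 in Lean-MSCs. No Obese library reached the lowest Lean library, although the gap between 8.75 and 8.93 was narrow. Its log2 ratio was -0.67 ± 0.34 (SE, n = 3 each), the lowest of the members, with an adjusted limma p of 0.806. E2F5 missed the criteria on its p-value with all libraries and met them, as low, without Obese library 1. The neighbouring gene C4H8orf59 overlaps its span.

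Outside the rule for naming genes, and chosen after their values were seen, E2F4 and RBL2 also had groups without overlap. E2F4, an E2F that represses cell cycle genes in resting cells, had 27.9, 35.2 and 21.5 normalized counts in Obese-MSCs and 10.4, 18.9 and 18.5 in Lean-MSCs. Its log2 ratio of 0.83 ± 0.32 (SE, n = 3 each) came with an adjusted limma p of 0.679. E2F4 met the criteria only without Obese library 3. RBL2, the gene of the pocket protein p130, which partners E2F4, had 21.8, 20.8 and 22.3 against 23.8, 32.8 and 23.6. The separation of RBL2 was slight, as the highest Obese and lowest Lean values differed by little, and its log2 ratio was -0.31. RBL1 (p107), E2F6, E2F7 and E2F8 complete the class with log2 ratios of 0.34, -0.25, -0.23 and 0.21, and their groups overlapped.

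The checkpoint genes held the one member with low 5hmC by the criteria. WEE2, a kinase gene of the WEE1 family known for holding oocytes in meiotic arrest by inhibiting CDK1, lies on chromosome 18 from 8171133 to 8196836 (Sscrofa11.1) and overlaps a long non-coding RNA gene. It had 17.8, 17.0 and 19.9 normalized counts in Obese-MSCs and 28.2, 26.8 and 23.6 in Lean-MSCs. The Obese libraries lay close together and all below the Lean libraries. The ratio of means, 0.697, was just inside the threshold of 0.7, and the log2 ratio was -0.52 ± 0.10 (SE, n = 3 each; exact permutation test, p = 0.1). The limma adjusted p was 0.779. WEE2 met the criteria in 2 of 6 runs, those without Obese library 3 or Lean library 9, and missed them without Obese library 1 or 2 or Lean library 7 or 8. It also missed them after quantile normalization. Its paralog WEE1, which restrains CDK1 in dividing somatic cells, had 32.9, 26.5 and 24.9 against 31.5, 27.8 and 19.6, and these values overlapped throughout. The other checkpoint genes, ATM, ATR, CHEK1 and CHEK2 of the DNA damage response and the stress gene GADD45A, had log2 ratios of 0.20, 0.14, -0.05, 0.23 and -0.46. None of the 5 separated the groups, and GADD45A had 1 Lean library at 23.3 beside 7.93 and 8.26.

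Over all 22 inhibitors, 12 were higher and 10 lower in Obese-MSCs, with a median log2 ratio of 0.07. Over the 27 drivers, 19 were higher (70.4%) and 8 lower, with a median of 0.18. The ratio of means was above 1 in 51.2% of all genes, and the median of all genes was 0.01. That ratio was also above 1 in 58.4% of 89 other cell cycle genes and in 68% of 25 other senescence genes, none of them members. The inhibitors' median was -0.042 without Obese library 2 and -0.034 without Lean library 8, while the drivers' median stayed above 0 without any 1 library. Between libraries of a group, the list median had an SD of 0.085 for inhibitors and 0.154 for drivers. These medians describe the lists, and no test was made of inhibitors against drivers. The 4 chromatin proteins all had higher means in Obese-MSCs, with a median of 0.29. Summed over drivers, the Obese libraries held 794, 614 and 741 normalized counts and the Lean libraries 657, 645 and 680. Obese library 2 therefore lay below every Lean library while the other 2 lay above, and the driver sums overlapped. Summed over inhibitors, the Obese libraries held 581, 571 and 598 normalized counts and the Lean libraries 559, 539 and 540, without overlap. Such sums weigh the genes with many counts most, and were not tested.

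**Figure D3:**
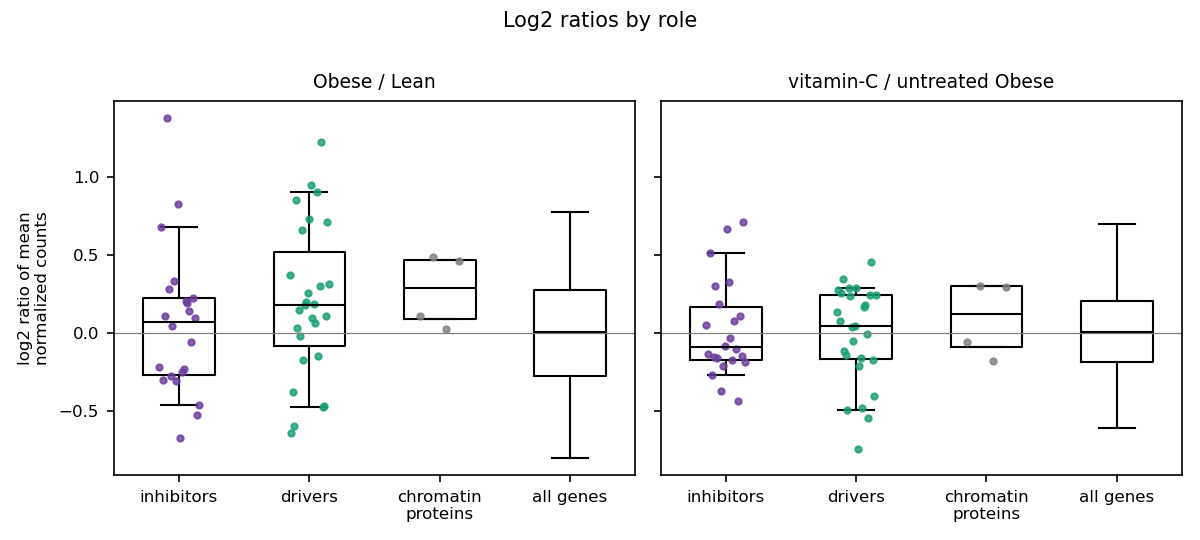
Log2 ratios of mean normalized counts by role, Obese over Lean on the left and vitamin-C over untreated Obese on the right. Points are members, boxes show the quartiles and the median, whiskers the 5th to 95th percentile, and the last box of each panel all genes with a mean above 3 in a group. The median lies at 0.07 for inhibitors and 0.18 for drivers on the left, and at -0.09 and 0.04 on the right.

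Of the 9 cyclin genes, 5 were higher and 4 lower in Obese-MSCs. CCND1 encodes cyclin D1, the cyclin that couples growth signals to CDK4 and CDK6, and lies on chromosome 2 from 3621242 to 3633380 (Sscrofa11.1). It had 53.8, 34.0 and 62.0 normalized counts in Obese-MSCs and 29.3, 28.8 and 24.7 in Lean-MSCs. Every Obese library exceeded every Lean library, by a wide margin in 2 of the 3. The log2 ratio was 0.85 ± 0.25 (SE, n = 3 each), and limma gave an adjusted p of 0.668 and an unadjusted p of 0.00884. CCND1 missed the criteria on its p-value with all libraries and met them without Obese library 2 or when tested on log2(value + 1). CCNA2 (cyclin A2, needed for S phase and mitotic entry) had 6.73, 11.4 and 11.7 against 20.2, 16.9 and 9.29, so 1 Lean library lay among the Obese ones. Without that library, Lean library 9, CCNA2 met the criteria for low 5hmC. The mitotic cyclin gene CCNB2 was the most uneven of the class, with 17.3, 21.0 and 4.00 in Obese-MSCs and 18.2, 9.91 and 35.8 in Lean-MSCs. Their log2 ratios were -0.64 ± 0.38 and -0.60 ± 0.74 (SE, n = 3 each). CCNE1 had means of 2.76 and 2.79, at which a library holds only a few reads, and was below the mean required for limma. CCNA1, CCNB1, CCND2, CCND3 and CCNE2, which complete the class, had log2 ratios of 0.37, -0.38, 0.03, 0.15 and 0.66 and overlapping groups.

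The CDK genes themselves differed little. CDK1, the kinase that drives mitosis, had 105, 98.5 and 135 normalized counts in Obese-MSCs and 120, 130 and 130 in Lean-MSCs, and its limma interval ran from -0.59 to 0.23. An annotated pseudogene overlaps its span. CDK2, CDK4 and CDK7 had log2 ratios of 0.18, 0.20 and 0.25, and the groups overlapped for all of them.

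Of the activator E2Fs, CDC25 phosphatases and ubiquitin ligase genes, 7 of 8 were higher in Obese-MSCs, with a median log2 ratio of 0.25. SKP2 encodes the F-box protein that marks p27 for destruction, and lies on chromosome 16 from 21463270 to 21500925 (Sscrofa11.1). It had 18.8, 15.1 and 15.4 normalized counts in Obese-MSCs and 12.3, 6.94 and 7.21 in Lean-MSCs. The groups did not overlap, and the ratio of means was 1.87, a log2 ratio of 0.90 ± 0.30 (SE, n = 3 each; exact permutation test, p = 0.1). Its limma adjusted p was 0.679. SKP2 met the criteria in 2 of 6 runs, without Obese library 2 or Lean library 7, and missed them without Obese library 1 or 3 or Lean library 8 or 9, although its log2 ratio stayed between 0.76 and 1.22.

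E2F1 and E2F2, which switch on replication genes, had the higher means in Obese-MSCs, but 1 Lean library of each reached into the Obese range. E2F1 had 36.5, 41.8 and 29.7 against 11.6, 29.8 and 23.6, where Lean library 8 just passed the lowest Obese value. E2F2 had 16.5, 10.4 and 15.2 against 4.65, 5.95 and 11.3, where Lean library 9 did so. Their log2 ratios were 0.73 ± 0.38 and 0.95 ± 0.44 (SE, n = 3 each), with adjusted limma p-values of 0.694 and 0.7002. E2F2 met the criteria when Obese library 2 or Lean library 9 was left out. CDC25C, a phosphatase gene that activates CDK1, had 6.42, 0.886 and 5.79 against 3.44, 4.97 and 4.11, so its mean in Obese-MSCs joined very unequal libraries. The other members of the class, E2F3, CDC25B, MDM2 and MDM4, had log2 ratios of 0.10, 0.19, -0.15 and 0.30, with overlapping groups.

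Of the 6 replication genes, 4 were higher and 2 lower in Obese-MSCs, and 0 met the criteria. PCNA, the sliding clamp of the replication fork, lies on chromosome 17 from 14137746 to 14142584 (Sscrofa11.1). It had 16.8, 5.59 and 11.8 normalized counts in Obese-MSCs and 4.55, 4.96 and 5.13 in Lean-MSCs. The Lean libraries were nearly equal, and the Obese libraries were spread above them with the lowest just clear. Its log2 ratio of 1.22 ± 0.41 (SE, n = 3 each) missed the criteria on the p-value, and its adjusted limma p was 0.704. Without Obese library 2, the low one, PCNA met the criteria. MCM3, a subunit of the replicative helicase, had 27.3, 32.3 and 16.9 against 42.7, 28.8 and 33.9, with overlapping groups and a log2 ratio of -0.46. MCM2, another subunit and chosen after its values were seen, had 16.4, 15.2 and 15.3 in Obese-MSCs and 23.7, 23.8 and 17.5 in Lean-MSCs. Its groups did not overlap, and it met the p-value criterion but not that of the ratio, which was 0.721. Without Lean library 9, MCM2 met both, as low. MCM4, MCM6 and MCM7 had log2 ratios of 0.11, 0.71 and 0.31, with overlapping groups. As high, MCM6 met the criteria only without Obese library 2, and MCM7 only without Lean library 7.

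Among the chromatin proteins, HELLS had groups without overlap. HELLS encodes a chromatin remodeller needed for DNA methylation, and lies on chromosome 14 from 105923727 to 105967003 (Sscrofa11.1). It had 7.63, 10.45 and 9.41 normalized counts in Obese-MSCs and 6.79, 5.95 and 7.19 in Lean-MSCs. The gap between the groups was small, and the ratio of 1.38 fell just short of 1.4 while the p-value criterion was met. After quantile normalization, or without Obese library 1, HELLS met both. Limma gave a 95% interval from -0.38 to 1.19 and an adjusted p of 0.885. LMNB1 had 145 ± 23.2 against 134 ± 20.2 normalized counts (SD, n = 3 each), with a limma interval from -0.31 to 0.53. HMGA1, which helps build senescence-associated heterochromatin, had 24.0, 13.2 and 6.31 in Obese-MSCs and 6.94, 13.9 and 10.3 in Lean-MSCs, and its higher mean came from 1 library. HMGA2 had a log2 ratio of 0.03.

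**Figure D4:**
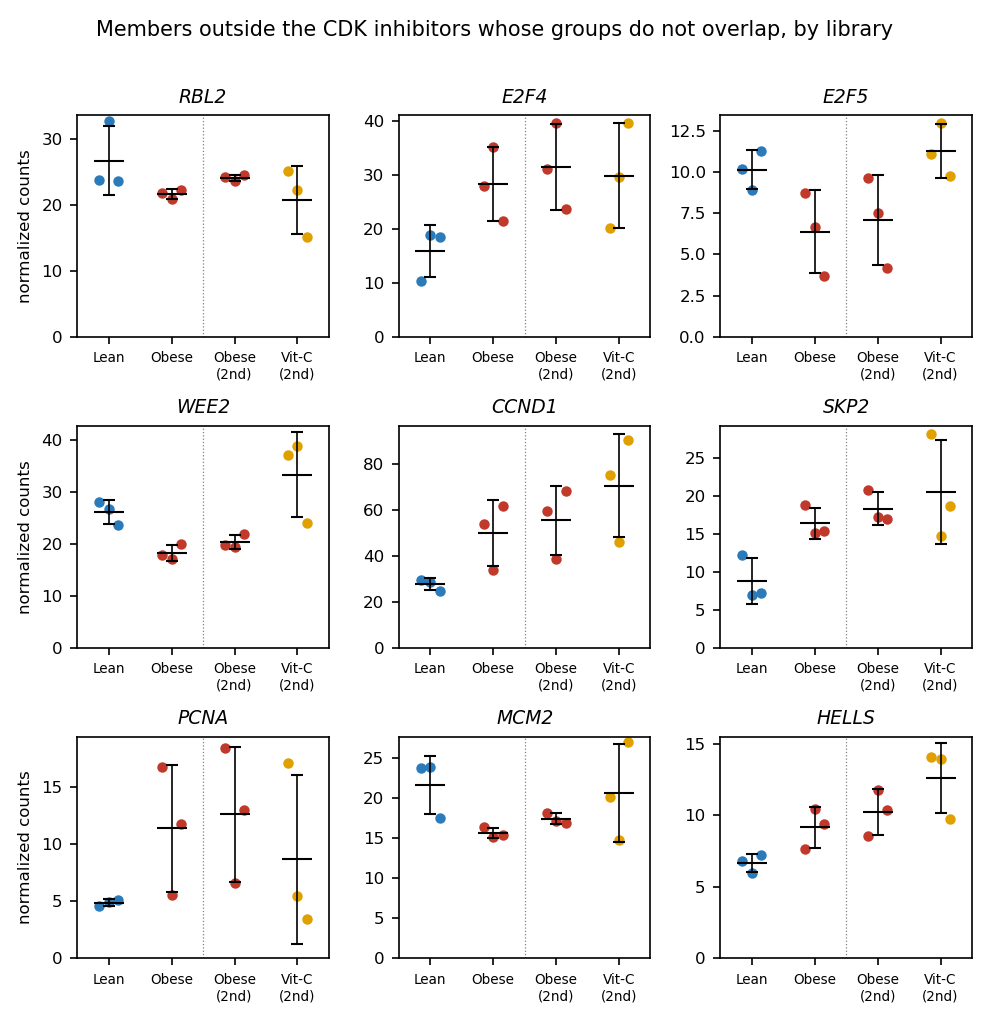
Normalized counts of exonic 5hmC (vertical axes, from 0) of the 9 members outside the CDK inhibitors whose groups do not overlap in a comparison, with a point per library and the mean ± SD of each group of 3. Lean and Obese left of the dotted line come from the comparison of diets, and Obese (2nd) and Vit-C from that of treatments. WEE2 and E2F5 are the 2 genes with separated groups on both sides of the line, with the untreated Obese libraries low on each side.

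With vitamin-C, the comparison asked whether the treatment altered the 5hmC of Obese-MSCs. None of the 53 members met the criteria for an increase or a decrease, that is 0 members, where 1.92% of all genes did (1.11% higher and 0.806% lower). Without the limit on the ratio, 0 members and 2.64% of all genes passed. Treated and untreated libraries did not overlap in 2 members (3.77%), WEE2 and E2F5, both higher with vitamin-C, where 5.91% of all genes had no overlap (3.24% higher and 2.67% lower). With limma, 0 of 51 members tested passed an adjusted p of 0.05, as did 0 of 15194 genes (0%). WEE2 alone reached an unadjusted limma p of 0.05 or less, at 0.0415, where 0.974% of all genes reached it (0.559% higher). Members were higher in 26 and lower in 27 cases. The half-width of the 95% limma interval had a median of 0.67 on the log2 scale, so differences of this size and less could not be told from no difference in most members.

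WEE2 had 37.2, 39.0 and 24.0 normalized counts with vitamin-C and 19.8, 19.3 and 21.9 without. The untreated libraries lay close together, and 2 treated libraries lay well above them while the other was near the highest untreated one. The log2 ratio was 0.71 ± 0.21 (SE, n = 3 each; exact permutation test, p = 0.1) and the limma adjusted p was 1.00. WEE2 missed the criteria with all libraries and met them without treated library 6. E2F5 had 11.07, 13.0 and 9.79 with vitamin-C and 9.62, 7.51 and 4.18 without, with a gap between the groups of less than 1 normalized count. Its log2 ratio was 0.67 ± 0.34 (SE, n = 3 each), and its limma interval ran from -0.19 to 1.496. In the comparison of diets, which shares the untreated libraries, the log2 ratios were -0.52 for WEE2 and -0.67 for E2F5. Values low in those 3 libraries enter both comparisons with opposite signs.

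CDKN2C, high in Obese-MSCs, had 19.1, 24.0 and 38.7 normalized counts with vitamin-C and 24.0, 24.7 and 42.0 without. Each group held 1 library far above the other two, and the log2 ratio of -0.15 ± 0.42 (SE, n = 3 each) had a limma interval from -0.87 to 0.55. SKP2, the other member high in Obese-MSCs, had 28.2, 14.7 and 18.7 with vitamin-C and 20.8, 17.2 and 17.0 without. The treated libraries spanned the untreated ones, and the limma interval ran from -0.57 to 0.80. CCND1 had 75.4, 46.1 and 90.6 against 59.7, 38.8 and 68.2, a log2 ratio of 0.35 ± 0.35 (SE, n = 3 each) with overlapping groups.

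Treated and untreated libraries overlapped for the inhibitors other than E2F5 and WEE2, and 0 of these met the criteria. CDKN1A had 20.1, 24.1 and 15.1 normalized counts with vitamin-C and 22.6, 21.4 and 13.4 without, with a limma interval from -0.64 to 0.75. CDKN1C had 15.1, 6.37 and 13.5 against 7.75, 5.43 and 11.3, a log2 ratio of 0.51 ± 0.45 (SE, n = 3 each), the third highest of the members. CDKN2B had 56.7 ± 18.0 against 68.3 ± 21.6, RB1 36.2 ± 7.73 against 31.8 ± 7.64, and WEE1 28.3 ± 3.40 against 31.3 ± 4.62 (SD, n = 3 each). Over the 22 inhibitors the median log2 ratio was -0.09, with 9 higher and 13 lower, and it was 0.014 without treated library 6.

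Over the 27 drivers the median was 0.04, with 15 higher and 12 lower, and it was -0.13 without treated library 4. E2F2 had the lowest log2 ratio of all members, -0.74 ± 0.33 (SE, n = 3 each), with 9.06, 6.41 and 12.6 normalized counts with vitamin-C and 18.2, 11.9 and 16.8 without. The highest treated value lay above the lowest untreated value, and limma gave an adjusted p of 1.00. E2F2 missed the criteria with all libraries and met those for a decrease without untreated library 2. PCNA had 17.1, 5.48 and 3.41 against 18.4, 6.56 and 13.0, and its log2 ratio of -0.54 had an SE of 0.81. MCM3 stood at the other end of the drivers with 36.2, 32.3 and 48.5 against 30.3, 36.4 and 18.7, a log2 ratio of 0.46 ± 0.32 (SE, n = 3 each). CCNB2 had 22.1, 33.6 and 0.598 with vitamin-C and 19.1, 23.4 and 4.58 without, so a gene well covered in 2 libraries of each group was nearly bare in the other.

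CCNE1 and CDC25C were below the mean required for limma in this comparison and rest on a few reads per library. E2F1 had 49.0 ± 16.6 normalized counts with vitamin-C and 40.1 ± 7.21 without, and CDK1 148 ± 35.5 and 126 ± 19.99 (SD, n = 3 each). CCNA2 had 12.1, 13.9 and 14.3 with vitamin-C and 7.63, 12.8 and 12.8 without, so the groups overlapped. LMNB1 had 190, 184 and 91.0 with vitamin-C and 161, 190 and 134 without, with 1 treated library far below the rest. HMGA1 had 13.1, 22.3 and 24.3 against 26.3, 15.0 and 7.09, and HELLS 14.1, 13.9 and 9.75 against 8.56, 11.8 and 10.4, with overlapping groups for both. The 31 members outside the rule for naming genes had log2 ratios between -0.44 and 0.32 with vitamin-C, and 0 of them separated the groups.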

How the data were processed

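The hMeDIP-seq libraries of swine MSCs fell into 3 groups of 3 by their labels. The authors aligned reads with Bowtie2 2.3.3.1 to susScr 11.1, removed duplicates with Picard 1.67, counted reads over exons with HTSeq 0.9.1 and processed them with edgeR 3.28.1. The deposited values are a normalized coverage signal per gene, fractional and never negative, and 0 columns of per-sample values were left unused. Whole reads came out within 0.05 of a step in 1 library of each table only, so no count test was made. The error given is the spread between libraries, without counting intervals. The labels do not tie cultures to animals, so p-values measure the spread between these libraries.

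Tests ran over all genes, separately in each table. The study's criteria were applied to the deposited values with equal variances. On log2(value + 1), limma 3.58.1 (R 4.3.3) was run with a mean-variance trend, over the upper 80% of genes by mean, with Benjamini-Hochberg adjustment. This pseudocount shrinks limma's fold changes of low genes. Log2 ratios in the text are of group means without it, with SE by the delta method. Exact permutation tests were two-sided over 20 arrangements. Python 3.11.15, numpy 2.4.6, pandas 2.3.3, scipy 1.17.1 and matplotlib 3.10.9 served for the rest. The procedure was also run on simulated data with changes larger than those of any member, in better-covered genes. That run does not show whether differences of the members' size would be found. The alternatives were other tests, thresholds, filters, pseudocounts and scalings, and each library left out. After the data had been seen, fits with a block for each way of pairing the vitamin-C cultures were added.

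Named genes were members meeting the criteria, the 4 highest and 4 lowest log2 ratios of each comparison with a mean above 3 in a group, and CDKN1A, CDKN2A, CDKN2B, CDKN2C, RB1, E2F1, CCND1, CDK1, PCNA, WEE1, WEE2, LMNB1, HMGA1 and HELLS. Others were added to complete each role, or after their values were seen where stated. Members and lists were chosen with earlier results of these data known. Positions are from RefSeq for Sscrofa11.1, found by symbol for 53 members. Peaks, mRNA and human libraries were not analysed here.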

Additional observations from a re-analysis of the deposited data

How the results depend on the processing

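With 3 libraries per group, limma's 95% intervals had a median half-width of 0.64 on the log2 scale for diets, and normalized values cannot show a shift of the mark over the whole genome. The 3 members that met the criteria in Obese-MSCs versus Lean-MSCs became 1 (WEE2) at a p-value threshold of 0.01 and 5 without a ratio threshold (MCM2 and HELLS in addition). CDKN2C no longer passed with unequal variances, which left 2, CCND1 passed in addition on log2(value + 1), which made 4, and under quantile normalization HELLS took the place of WEE2. The count was between 0 and 5 with 1 library left out, 0 without Lean library 8 and 5 without Obese library 2. With vitamin-C the count of 0 became 1 (WEE2) when the test was made on log2(value + 1), and was between 0 and 1 with 1 library left out. The median log2 ratio of inhibitors lay between -0.042 and 0.14 for diets and between -0.17 and 0.014 for vitamin-C with 1 library left out. That of drivers for vitamin-C lay between -0.13 and 0.12. These medians were -0.042 without Obese library 2 and -0.034 without Lean library 8 (diets), 0.014 without treated library 6 (inhibitors) and -0.13 without treated library 4 (drivers). The causes were not tested. Limma called 0 members under every alternative run, with the smallest adjusted p of a member between 0.397 and 0.961 for diets and 3 to 9 members at an unadjusted p of 0.05 or less. For vitamin-C the smallest adjusted p was 1.00 to 2 decimals throughout, with 0 to 2 members at that unadjusted p. Shares of all genes are not given beside these counts, so changes between alternatives may not be particular to the members. Members higher with vitamin-C were 24 against 29 lower after quantile normalization. The log2 ratios of the 22 named members moved by less than 1 SD between libraries in all 198 alternative values per comparison, but by more than their SE in 4 for diets (4 genes) and 1 for vitamin-C. Their sign changed in 18 of these for diets (8 genes) and in 12 for vitamin-C (7 genes), and with all libraries kept in CDC25C and CCNB2 only. The labels pair no libraries. After the data had been seen, each of the 6 matchings of treated with untreated libraries was fitted as a replicate block in limma, and 0 members passed an adjusted p of 0.05 in any. With untreated 1, 2 and 3 matched to treated 4, 5 and 6, WEE2 alone had an unadjusted p of 0.05 or less, at 0.0214, as did 2.45% of all genes, and the other matchings gave 0 or 1 member.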

Other observations

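Other genes of the same pathways, on lists that hold no member, met the criteria no more often than all genes did. Of 89 other cell cycle genes, 2 were high in Obese-MSCs by the criteria (CDT1 and RFC2) and 1 was low (SMC1A). These are 3.37% of the list, where 4.5% of all genes met the criteria, with a median log2 ratio of 0.13 over the list and 0.01 over all genes. CDT1, which loads the replicative helicase, had 3.18 ± 0.84 normalized counts against 1.02 ± 0.98 (SD, n = 3 each), values at which a library holds a few reads. RFC2, a subunit of the complex that loads PCNA onto DNA, had 13.4 ± 1.33 against 6.68 ± 2.35 (SD, n = 3 each). SMC1A, a cohesin subunit, had 31.2 ± 5.41 against 57.7 ± 14.8 (SD, n = 3 each). Of 25 other senescence genes with values, 0 met the criteria and the median log2 ratio was 0.25. With vitamin-C, 0 genes of either list met the criteria, where 1.92% of all genes did, and the medians were 0.00 and 0.01. The limma test, adjusted over all genes, called 0 genes of either list in either comparison, with 5 of 80 and 1 of 22 tested at an unadjusted p of 0.05 or less for diets (6.81% of all genes) and 1 and 0 for vitamin-C (0.974% of all genes).

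Treated and untreated libraries resembled each other in a fixed order. Over the 53 members, the deviations of treated libraries 4, 5 and 6 from their group mean correlated with those of untreated libraries 1, 2 and 3 respectively at a Pearson's r between 0.33 and 0.46, and in the other 6 pairings between -0.51 and 0.07. Over 15194 genes the same pairs gave 0.15 to 0.34, and the others -0.22 to -0.03. Deviations from a mean of 3 libraries are not independent of each other, genes share their libraries, and neither the labels nor the study's methods tie a treated to an untreated culture by pig. Taken in these pairs, 8 members (15.1%) were higher with vitamin-C in all 3 pairs, where 10.9% of all genes were, and 11 (20.8%) were lower in all 3, where 11.2% were. Those higher were CDKN1C, RB1, E2F5, WEE2, CCNA2, CCND1, MDM2 and MCM7. Those lower were CDKN1B, CDKN2C, RBL1, ATR, CHEK1, WEE1, GADD45A, CCND2, E2F2, PCNA and MCM4. The pairs were read from these same libraries, so the counts are a description and were not tested. With the pairs as a block, the limma estimates on the log2 scale were 0.33 for CCND1 and -0.70 for E2F2, picked here without a rule. Intervals from that fit can be too narrow, because the pairs came from these same libraries, and are not given. The unpaired fit gave 95% intervals from -0.31 to 0.97 for CCND1 and from -1.48 to 0.066 for E2F2.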
